A study of Mus musculus with 16 samples.

Results

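Interferons are secreted proteins that instruct cells to resist infection and to display protein fragments to T cells. Type I interferons signal through STAT and IRF transcription factors to antiviral genes such as the Ifit, Mx and Oas families, and interferon gamma acts more strongly on immunity-related GTPases, on the chemokine Cxcl9 and, through the coactivator Ciita, on MHC class II. MHC class I is present on most nucleated cells, whereas MHC class II and its invariant chain Cd74 are mainly products of professional antigen-presenting cells such as macrophages and dendritic cells. Mature skeletal muscle fibres carry little MHC.

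The module described here holds 43 genes chosen by name: 7 signalling and transcription factors, 17 antiviral effectors of the type I response, 7 interferon-inducible GTPases and chemokines, 7 genes of MHC class I with its regulator and peptide loading, and 5 genes of MHC class II with its regulator and invariant chain. All probes annotated to these symbols were taken, 68 of 25697 on the array, and every one of the 43 genes, out of 16593 named on the array, had at least 1. The rule used gene symbols and no signal. The samples were quadriceps femoris muscles of 8 ATF4 mKO and 8 control mice, all male and 22 months old. ATF4 mKO mice were ATF4(L/L);MCK-Cre(Tg/0), and control mice were littermates that carried the same floxed Atf4 alleles without Cre, ATF4(L/L);MCK-Cre(0/0). MCK-Cre acts in muscle fibres, so leukocytes, endothelium and other cells of an ATF4 mKO muscle keep their Atf4. ATF4 is a transcription factor of the integrated stress response, and the comparison asked which mRNAs depend on it in aged muscle. The Atf4 signal averaged 8.52 ± 0.05 in ATF4 mKO mice and 10.45 ± 0.12 in control mice (SD, n = 8 each), which differed by -1.93 ± 0.04 (S.E.; adjusted p = 1.26e-13 in limma).

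Values are log2 signals, and a difference of 1 is a doubling of the signal. Signals ran from 8.25 to 15.4, and 65.7% of probes had a mean under 8.5, called the floor here, where a change in mRNA is compressed or cannot show. The muscle markers Ckm and Acta1 averaged 15.11 and 15.10 over all mice. Of 5 general leukocyte markers, Laptm5 (10.08), Fcer1g (8.93) and Coro1a (8.87) were above the floor and Ptprc (8.32) and Tyrobp (8.42) were at it. All markers of dendritic cells (5), T and NK cells (6) and B cells (3) that were measured lay at the floor. In whole-muscle RNA, a different number of cells of a type and a different amount of RNA per cell cannot be told apart.

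The promoters of 6 members are shown because these genes differed in how they varied between mice. H2-Eb1 stands for MHC class II, B2m for class I, Gbp2, Igtp and Irgm1 for the GTPases, and Ifit3 for the antiviral effectors. Each run is the 200 bases before the RefSeq start on the gene's strand (GRCm38.p6), and capitals mark matches to 3 motifs on either strand: the core of the interferon-stimulated response element GAAANNGAA, the gamma-activated site TTCNNNGAA, and the MHC class II Y box CTGATTGG.
H2-Eb1 (chr17:34305667-34305866, + strand): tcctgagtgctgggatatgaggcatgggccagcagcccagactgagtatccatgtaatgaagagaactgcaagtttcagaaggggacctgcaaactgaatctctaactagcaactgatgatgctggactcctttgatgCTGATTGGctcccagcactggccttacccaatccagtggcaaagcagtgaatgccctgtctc
B2m (chr2:122147487-122147686, + strand): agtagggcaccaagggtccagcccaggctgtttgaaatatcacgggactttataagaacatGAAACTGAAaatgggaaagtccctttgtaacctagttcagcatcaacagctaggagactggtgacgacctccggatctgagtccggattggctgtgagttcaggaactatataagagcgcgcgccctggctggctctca
Gbp2 (chr3:142620463-142620662, + strand): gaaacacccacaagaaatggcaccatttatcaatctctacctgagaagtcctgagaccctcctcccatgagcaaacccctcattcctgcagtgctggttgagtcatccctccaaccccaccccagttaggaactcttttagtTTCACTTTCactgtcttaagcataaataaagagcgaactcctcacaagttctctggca
Igtp (chr11:58199356-58199555, + strand): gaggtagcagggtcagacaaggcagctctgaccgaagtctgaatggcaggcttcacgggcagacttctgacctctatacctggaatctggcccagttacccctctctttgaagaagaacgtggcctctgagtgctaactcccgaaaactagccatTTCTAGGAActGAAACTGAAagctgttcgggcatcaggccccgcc
Irgm1 (chr11:48871421-48871620, - strand): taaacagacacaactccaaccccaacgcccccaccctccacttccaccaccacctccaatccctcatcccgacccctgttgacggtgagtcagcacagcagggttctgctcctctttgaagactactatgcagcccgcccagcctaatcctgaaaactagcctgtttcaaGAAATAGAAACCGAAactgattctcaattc
Ifit3 (chr19:34583329-34583528, + strand): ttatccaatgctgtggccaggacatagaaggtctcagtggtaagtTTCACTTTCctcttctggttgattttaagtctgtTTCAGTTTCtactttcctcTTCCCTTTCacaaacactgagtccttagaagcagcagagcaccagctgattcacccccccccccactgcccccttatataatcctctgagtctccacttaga
The H2-Eb1 promoter held a Y box 62 bases before the start and neither other motif. In Igtp a gamma-activated site and a response element core lay 45 and 34 bases before the start, in Irgm1 cores at 30 and 24 bases overlapped, and in Ifit3 there were 3 separate cores. RefSeq windows, 250 bases before to 50 after the start, matched 31 of the 43 genes, and those without one were Cd74, Ciita, H2-Ab1, Ifi27l2a, Iigp1, Mx1, Mx2, Nlrc5, Parp14, Rtp4, Tap2 and Usp18. In these windows, 17 of the 31 genes held the response element core, 8 the gamma-activated site and 8 the Y box. Counted by window, these were 17, 8 and 9 of 37, against 8.56%, 8.3% and 4.1% of 32851 windows of all genes. The Y box genes were H2-Eb1, H2-Aa, H2-K1, H2-D1, Tap1, Irf8, Cxcl9 and Cxcl10. The amino acid response element TGATGNAA, to which ATF4 binds, matched in 2 of the 31, Gbp3 and Ifitm3. By window this was 2 of 37, against 3.97% of all windows. A match of letters is a description and not a binding site.

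The module as a whole was present at uneven levels. Of the 43 genes, 22 had a brightest probe at the floor (51.2%, against 61.6% of all genes) and 21 were above it. Irgm1, a GTPase of the autophagy and pathogen response, was the brightest (12.44, mean of all mice), followed by B2m (12.22), the light chain of every MHC class I molecule, and Ifitm3 (11.13), a membrane protein that blocks virus entry. Cd74 (10.39), Ifi27l2a (10.33), Irf1 (9.72), H2-Ab1 (9.54) and H2-Eb1 (9.24) came next. These are the brightest probes. The other Irgm1 probes averaged 8.87 and 8.35, and the other B2m probes 12.12 and 8.31. Probes differ in affinity, so this order is one of signals and not of mRNA abundance. At the floor were 11 of 17 antiviral effectors, among them Isg15, Mx1, Mx2, Oas1a, Ifit1 and Ifih1, and also Irf7, Stat2, H2-K1, H2-D1, Tap1, Nlrc5 and Ciita. The 2 heavy chain genes H2-K1 (8.42) and H2-D1 (8.40) were thus at the floor while their partner B2m was not. Members of the H2, Ifit and Oas families have near-identical copies, and a probe of one may also bind another.

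No member differed between genotypes past the threshold. With limma, 0 of 68 member probes were called at an adjusted p of 0.1, where 0.136% of all 25697 probes were (35 probes), and the methods' t-test also called 0. At an unadjusted p of 0.025, 1 member probe passed (1.47%), against 2.98% of all probes, and at 0.05 there were 2 of the 68, against 5.62% of all probes. The probe that passed, the dimmest of 3 for B2m, lay at the floor and differed by -0.02 (limma, adjusted p = 0.834). The second was a floor probe of Ifit3 with a difference of -0.04 (limma, adjusted p = 0.861). The genotypes overlapped for all 68 probes, and over the array 0.101% of probes did not overlap.

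Differences of the brightest probes, ATF4 mKO minus control, ran from -0.07 to 0.12 over the 43 genes, and 34 were above 0 and 9 below. The median difference was 0.01, and over all 16593 genes it was 0.000467. The medians by class were 0.01 for signalling and transcription factors, 0.00221 for antiviral effectors, 0.04 for GTPases and chemokines, 0.01 for MHC class I and 0.07 for MHC class II. This tilt over the 43 genes was lost without ATF4 mKO mouse 3: 19 differences were then above 0 and 24 below. The medians without it were 0.006, -0.001, -0.021, -4.1e-04 and -0.038 in the same order. Control mice mattered as well, since without control mice 3 and 7 the medians were 0.009, 0.001, 0.007, 0.006 and 0.006. Differences above 0 were not counted with other mice left out.

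**Figure D1:**
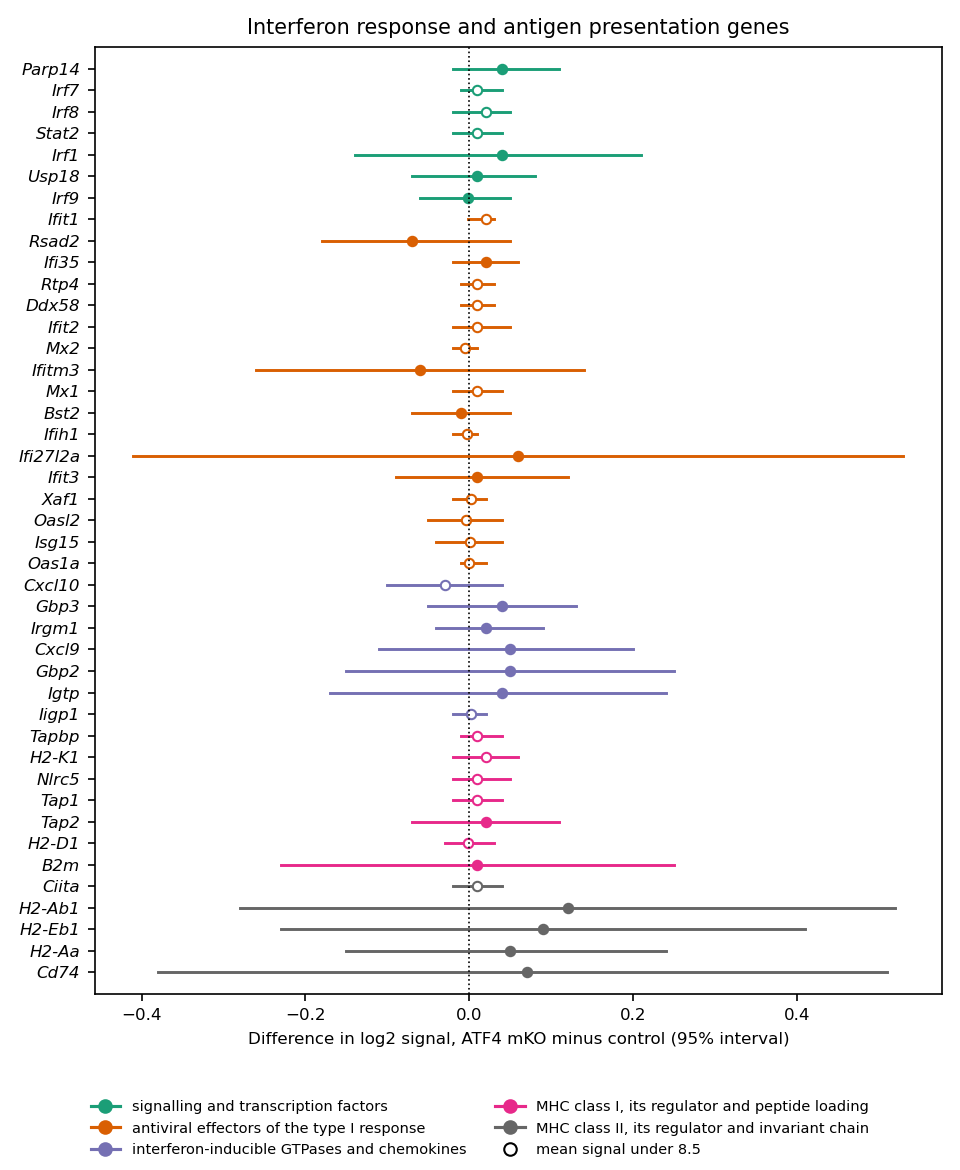
Difference in log2 signal, ATF4 mKO minus control, for the brightest probe of each of the 43 genes, with 95% intervals from limma (n = 8 mice each), coloured by class and open where the mean signal was under 8.5. All intervals cross 0, and the widest belong to Ifi27l2a, Cd74 and H2-Ab1. Most genes at the floor have narrow intervals, but that of Cxcl10 (-0.10 to 0.04) is wider than that of Ifi35 (-0.02 to 0.06), a gene above it.

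MHC class II held the 2 largest differences of the module, with wide errors. Cd74, the chaperone that fills the class II groove until peptide is loaded, had a lowest, median and highest signal of 9.92, 10.35 and 11.54 in ATF4 mKO mice, against 9.71, 10.28 and 10.91 in control mice. The genotypes overlapped, and 1 ATF4 mKO animal, mouse 3, lay above every other mouse. The difference was 0.07 ± 0.21 (S.E., 95% interval -0.38 to 0.51, limma adjusted p = 0.993), and without mouse 3 it was -0.09 ± 0.16. H2-Ab1, the beta chain of the class II molecule A, gave 9.20, 9.54 and 10.68 in ATF4 mKO mice, against 8.99, 9.40 and 9.85 in control mice. Its difference of 0.12 ± 0.19 (limma adjusted p = 0.979) became -0.04 without mouse 3, and its other probes gave 0.10, 0.02 and 0.01. H2-Eb1, the beta chain of molecule E, read 8.94, 9.21 and 10.16 in ATF4 mKO mice, against 8.81, 9.20 and 9.52 in control mice, a difference of 0.09 ± 0.15 (limma adjusted p = 0.983) and of -0.04 without mouse 3. The alpha chain H2-Aa, dimmer at a mean of 8.85, differed by 0.05 ± 0.09, and by -0.02 without mouse 3. Ciita, the coactivator on which class II transcription depends, was at the floor, with 8.31, 8.32 and 8.41 in ATF4 mKO mice and 8.30, 8.32 and 8.36 in control mice.

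Among class I genes, B2m had 11.83, 12.14 and 12.87 as lowest, median and highest signal in ATF4 mKO mice, against 11.98, 12.25 and 12.35 in control mice. Again mouse 3 was highest, and the remaining 7 ATF4 mKO mice reached 12.43. The difference was 0.01 ± 0.11 (limma adjusted p = 0.998), and -0.08 ± 0.08 without mouse 3. A second bright B2m probe gave -0.04, and the floor probe -0.02. Tap2, a subunit of the pump that carries peptides into the endoplasmic reticulum, read 8.80, 8.85 and 9.13 in ATF4 mKO mice, against 8.78, 8.88 and 8.93 in control mice, a difference of 0.02 ± 0.04 (limma adjusted p = 0.985) and of -0.01 without mouse 3. The other 5 class I genes were at the floor, so a difference in class I heavy chains was not detectable by these probes. Their spans were narrow in both genotypes. H2-K1 read 8.38, 8.42 and 8.54 in ATF4 mKO mice and 8.37, 8.42 and 8.43 in control mice. Tapbp, which bridges the pump and class I, averaged 8.47 ± 0.01 in ATF4 mKO mice and 8.46 ± 0.03 in control mice (SD), and its second probe gave -0.01. Nlrc5, the class I coactivator, read 8.31, 8.37 and 8.47 in ATF4 mKO mice and 8.35, 8.37 and 8.39 in control mice. H2-D1 and Tap1 differed by -0.0016 and 0.01.

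By their brightest probes, the immunity-related GTPases split in brightness and in pattern. Irgm1 lay between 12.34 and 12.57 in ATF4 mKO mice (median 12.42) and between 12.36 and 12.48 in control mice (median 12.42), a narrow band with a difference of 0.02 ± 0.03 (limma adjusted p = 0.968). Igtp, a GTPase of the same family, had 8.75, 8.95 and 9.55 in ATF4 mKO mice, against 8.78, 8.95 and 9.23 in control mice, and differed by 0.04 ± 0.10 (limma adjusted p = 0.989). Gbp2, a guanylate-binding protein that attacks intracellular pathogens, ran between 8.80 and 9.65 in ATF4 mKO mice (mean 9.06 ± 0.27), against 8.84 and 9.21 in control mice (mean 9.01 ± 0.11, SD), and differed by 0.05 ± 0.10 (limma adjusted p = 0.986). For both genes mouse 3 was the top value, and without it the differences were -0.04 for Igtp and -0.03 for Gbp2. Gbp3 read 8.48, 8.61 and 8.90 in ATF4 mKO mice, against 8.53, 8.58 and 8.66 in control mice (difference 0.04 ± 0.04, and 0.003 without mouse 3). It too was highest in mouse 3, and the genotypes overlapped. Cxcl9, a chemokine that draws T cells and is induced chiefly by interferon gamma, was just above the floor and differed by 0.05 ± 0.07, with mouse 3 at 9.03 and the highest control mouse at 8.67, and by -0.02 without mouse 3. Cxcl10, its relative, was at the floor, with 8.34, 8.35 and 8.52 in ATF4 mKO mice and 8.35, 8.40 and 8.57 in control mice (difference -0.03 ± 0.03). Iigp1 was at the floor as well. The 2 dimmer probes of Gbp2 were at the floor with differences of -0.00421 and -0.000735, and the dimmer probes of Irgm1 gave 0.03 and 0.00201. The first of these Irgm1 probes (mean 8.87) was above the floor and, like Igtp and Gbp2, was highest in mouse 3 (9.20). The narrow band of the brightest Irgm1 probe was thus not shared by it.

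Antiviral effectors above the floor numbered 6, and their differences had both signs. Ifitm3 read 10.70, 11.13 and 11.43 in ATF4 mKO mice, against 10.95, 11.13 and 11.42 in control mice, a difference of -0.06 ± 0.09 (limma adjusted p = 0.979). With 1 mouse left out this ran from -0.107 without ATF4 mKO mouse 3 to -0.003 without ATF4 mKO mouse 5. Ifi27l2a, a small mitochondrial protein that interferon strongly induces, read 9.83, 10.23 and 11.26 in ATF4 mKO mice, against 9.75, 10.25 and 11.30 in control mice. It had 1 very high animal in each genotype, ATF4 mKO mouse 6 and control mouse 4, and the difference was 0.06 ± 0.22 (limma adjusted p = 0.996), which was -0.068 without ATF4 mKO mouse 6 and 0.205 without control mouse 4. Ifit3, which binds viral RNA with its Ifit partners, read 8.57, 8.74 and 8.99 in ATF4 mKO mice, against 8.63, 8.71 and 8.82 in control mice (difference 0.01 ± 0.05, and -0.02 without ATF4 mKO mouse 3), and its floor probes gave -0.04 and -0.00324. Rsad2 (viperin) read 8.53, 8.65 and 8.80 in ATF4 mKO mice, against 8.61, 8.69 and 9.02 in control mice, and its difference of -0.07 ± 0.05 was -0.026 without control mouse 3. Neither gene separated the genotypes. Ifi35 read 8.61, 8.68 and 8.73 in ATF4 mKO mice and 8.61, 8.64 and 8.72 in control mice, and Bst2 (tetherin) differed by -0.01 ± 0.03. Ifit1, at the floor, had the smallest p of the class by its brightest probe, with 8.30, 8.32 and 8.35 in ATF4 mKO mice and 8.29, 8.30 and 8.33 in control mice (difference 0.02 ± 0.01, limma adjusted p = 0.894). With Ifit1, the 11 antiviral genes at the floor differed by -0.00475 to 0.02.

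In the signalling class, Irf1, the factor that interferon gamma induces first, read 9.44, 9.73 and 10.12 in ATF4 mKO mice, against 9.53, 9.72 and 9.87 in control mice (difference 0.04 ± 0.08, limma adjusted p = 0.989, and -0.02 without mouse 3). Its other 4 probes gave 0.01, -0.00281, -0.01 and -0.02, the last 3 at the floor. Parp14, an ADP-ribosyltransferase of the interferon response, read 8.73, 8.80 and 8.96 in ATF4 mKO mice and 8.72, 8.77 and 8.83 in control mice (difference 0.04 ± 0.03, limma adjusted p = 0.912). Usp18, the protease that removes ISG15 and restrains the type I receptor, read 8.66, 8.76 and 8.87 in ATF4 mKO mice and 8.63, 8.75 and 8.88 in control mice. None of these separated the genotypes. Irf7, the amplifier of type I interferon, read 8.32, 8.36 and 8.39 in ATF4 mKO mice and 8.31, 8.34 and 8.38 in control mice, all at the floor. Irf8, a factor of macrophages and dendritic cells and also at the floor, read 8.45, 8.47 and 8.49 in ATF4 mKO mice and 8.37, 8.46 and 8.49 in control mice. Irf9 and Stat2, transcription factors that act downstream of the type I receptor, differed by -0.0018 and 0.01.

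**Figure D2:**
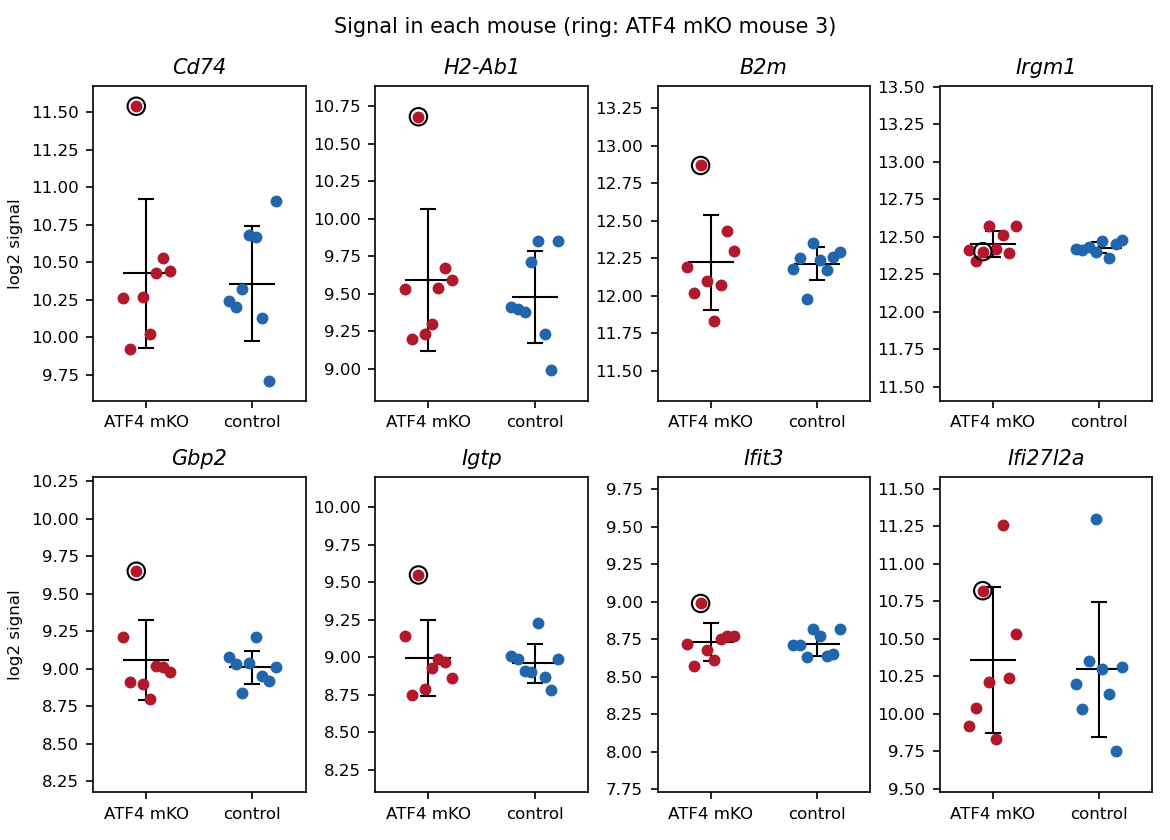
Log2 signal of 8 members in each of the 8 ATF4 mKO (left) and 8 control mice (right), 1 point per mouse, with the mean and SD. Every panel spans the same number of log2 units and a ring marks ATF4 mKO mouse 3. Each gene is shown by its brightest probe. Mouse 3 is the top point for Cd74 (11.54), H2-Ab1 (10.68), B2m (12.87), Gbp2 (9.65), Igtp (9.55) and Ifit3 (8.99), but not for this Irgm1 probe or Ifi27l2a.

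Within genotype, several members differed between mice more than most genes did. The SD within genotype had a median of 0.155 over the 21 members above the floor and of 0.072 over all 6380 genes above it. For MHC class II the median was 0.359. Ifi27l2a (SD 0.469) was at rank 19 and Cd74 (SD 0.444) at rank 23 of the 6380 genes, H2-Ab1 was at rank 35, H2-Eb1 at 70, B2m at 136 and Igtp at 205. These SDs pool both genotypes and include ATF4 mKO mouse 3. In ATF4 mKO and control mice the SD was 0.32 and 0.11 for B2m, 0.26 and 0.13 for Igtp, and 0.50 and 0.38 for Cd74. The brightest Irgm1 probe (rank 3606, SD 0.066), Bst2 (4090) and Ifi35 (5584) varied no more than a typical gene. A second Irgm1 probe had an SD of 0.13 in ATF4 mKO mice and 0.05 in control mice. ATF4 mKO mouse 3 was the highest of the 16 mice for 15 of the 21 members: Cd74, H2-Ab1, H2-Eb1, H2-Aa, B2m, Tap2, Gbp2, Gbp3, Igtp, Cxcl9, Irf1, Irf9, Parp14, Ifit3 and Ifitm3. The other 6 peaked in 6 different mice. The share of all 6380 genes above the floor that were highest in mouse 3 was not counted. The mean over the 5 class II genes was 10.03 in mouse 3, reached 9.35 in the remaining ATF4 mKO mice and ran between 8.88 and 9.53 in control mice.

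**Figure D3:**
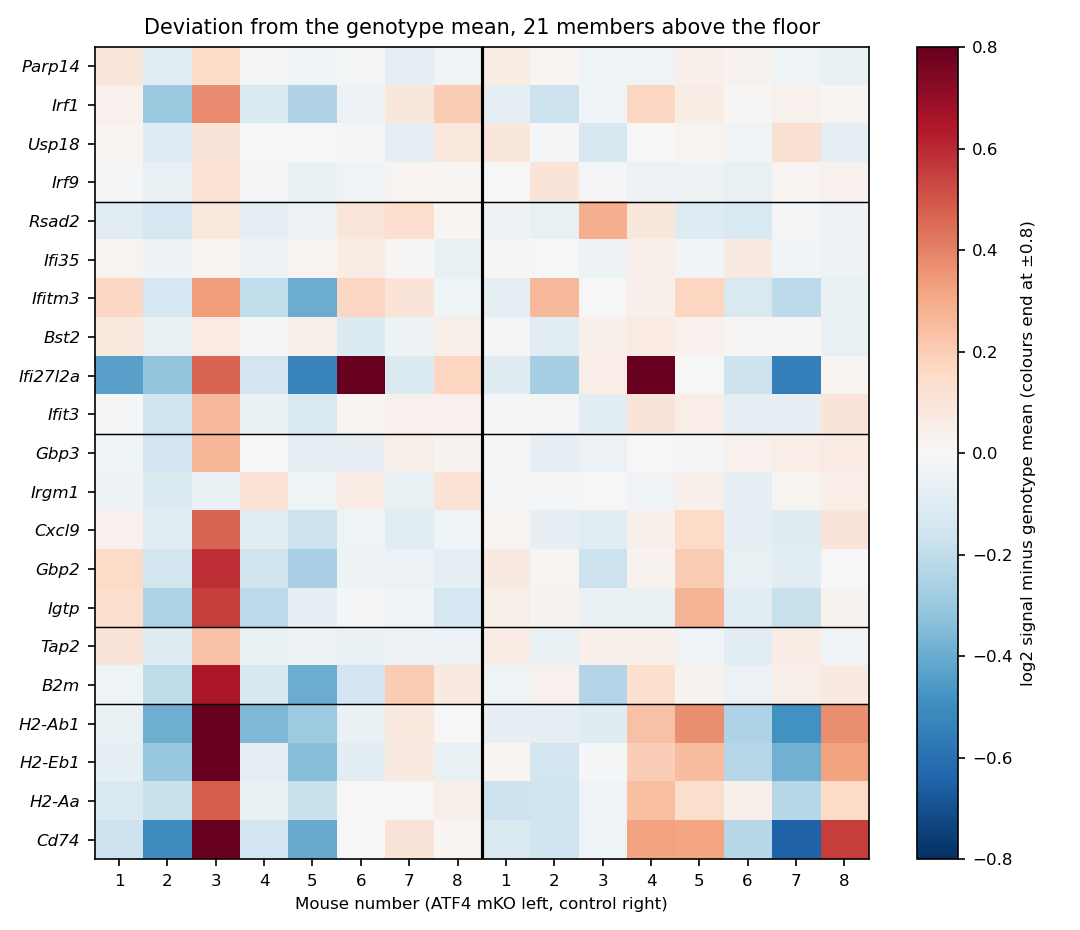
Deviation of each mouse from the mean of its genotype for the 21 members above the floor (rows, ordered by class), with ATF4 mKO mice left and control mice right. ATF4 mKO mouse 3 is high in most rows, class II rows also run high in control mice 4, 5 and 8 and low in control mouse 7, and Ifi27l2a is highest in ATF4 mKO mouse 6 and control mouse 4 (colours end at 0.8 log2 units either side of 0).

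Class II genes varied together across mice. After the mean of each genotype was subtracted, Cd74 and H2-Eb1 had a Pearson r of 0.98 and a Spearman rho of 0.94 over 16 mice (two-sided permutation within genotype, p = 1.0e-05, the smallest that 100000 resamples can give, and 0.0001 after Benjamini-Hochberg adjustment over 30 pairs). Within ATF4 mKO mice r was 0.99 (exact permutation p = 0.000843, n = 8) and within control mice 0.98 (exact permutation p = 9.92e-05, n = 8). Without the 2 mice farthest from the Cd74 median, ATF4 mKO mouse 3 and control mouse 8, r was 0.96. The pair Cd74 and H2-Ab1 gave r = 0.97 and rho = 0.93 (permutation p adjusted 0.0001 and 0.00015), and 0.94 without those mice. Cd74 and H2-Aa gave r = 0.93 and rho = 0.89 (permutation p adjusted 0.0001 and 0.0004), and 0.86 without them. H2-Aa and H2-Ab1 gave r = 0.89 and rho = 0.85 (permutation p adjusted 0.00144 and 0.000975), and 0.70 without ATF4 mKO mouse 3 and control mouse 7. The relation thus held in both genotypes and without the highest animal. The 4 H2-Ab1 probes correlated at 0.97 to 0.99 with each other and the 2 Cd74 probes at 0.99. Cd74 and Ciita gave r = 0.76 and rho = 0.54 (permutation p adjusted 0.0177 and 0.143), with Ciita at the floor. This r was 0.81 in ATF4 mKO mice and 0.65 in control mice. It was weaker without mouse 3 (0.50) and without the 2 farthest mice (0.32).

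The GTPases Igtp and Gbp2 also varied together, with r = 0.92 and rho = 0.84 (permutation p adjusted 0.00105 and 0.0012), and 0.70 without ATF4 mKO mouse 3 and control mouse 5. Igtp and Irgm1, of the same family, gave r = -0.16 and rho = -0.05 (permutation p adjusted 0.887 and 0.946). The second Irgm1 probe (mean 8.87) did not follow the first (r = -0.29 between them) and peaked in mouse 3 at 9.20, so the pattern of Irgm1 depended on the probe. Igtp and Irf1 gave r = 0.59 and rho = 0.31 (permutation p adjusted 0.154 and 0.613). Between classes, Igtp and Cd74 gave r = 0.78 and rho = 0.54 (permutation p adjusted 0.0177 and 0.143). The relation was weaker without mouse 3 (r = 0.50) and without the 2 farthest mice (0.42). Within ATF4 mKO mice this r was 0.87 (exact permutation p = 0.0245, n = 8) and within control mice 0.58 (exact permutation p = 0.123, n = 8).

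In all, 7 of the 30 pairs tested passed an adjusted permutation p of 0.05 by Pearson r, 6 of the 8 pairs with both genes above the floor and 1 of the 22 with a gene at it. Every pair chosen to represent the type I response or class I had a gene at the floor (Irf7, Ifit1 or H2-K1), and none passed. Irf7 with Ifit3 gave r = 0.38 and rho = 0.49 (permutation p adjusted 0.442 and 0.243), Irf7 with Cd74 0.34 and 0.40 (0.577 and 0.432), Ifit1 with Ifit3 0.21 and 0.30 (0.838 and 0.613), H2-K1 with B2m 0.14 and 0.25 (0.887 and 0.688), and Irf7 with H2-K1 -0.05 and -0.06 (0.938 and 0.946). At the floor these say nothing on whether the mRNAs vary together.

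Pairs of brighter members were therefore added after the data were seen and are given with no test. Over 16 mice, Cd74 and Ifit3 had r = 0.93 and rho = 0.90, and r = 0.85 without ATF4 mKO mouse 3, so an antiviral effector followed class II closely. Ifi27l2a followed Cd74 in rank more than in size (r = 0.60, rho = 0.85). By contrast Cd74 had r = 0.32 with Rsad2, 0.22 with Bst2, 0.11 with Usp18 and 0.06 with the brightest Irgm1 probe (rho 0.44, 0.19, 0.04 and 0.26). B2m and Cd74 gave r = 0.76 and rho = 0.64, but 0.45 without mouse 3, and r was 0.94 in ATF4 mKO mice and 0.28 in control mice. B2m with Ifit3 gave 0.87 and 0.74 without mouse 3, B2m with Irf1 0.84 and 0.72, and B2m with Gbp3 0.86 and 0.63 (rho 0.84, 0.79 and 0.79 with all mice). In the same order, r was 0.93, 0.91 and 0.93 in ATF4 mKO mice and 0.72, 0.40 and 0.37 in control mice. B2m with Ifitm3 gave 0.64, with 0.11 in control mice, and B2m with the brightest Irgm1 probe -0.10.

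Over all pairs of members above the floor, the median r was 0.95 within class II (6 pairs), 0.66 within GTPases and chemokines (10 pairs), 0.44 within the signalling class (6 pairs) and 0.22 within antiviral effectors (15 pairs). Without ATF4 mKO mouse 3 these medians were 0.89, 0.23, 0.10 and 0.16. Class II with GTPases and chemokines had 0.76, and 0.40 without mouse 3. Class II with antiviral effectors had 0.43, and 0.27 without mouse 3, with single pairs then between -0.14 and 0.85.

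**Figure D4:**
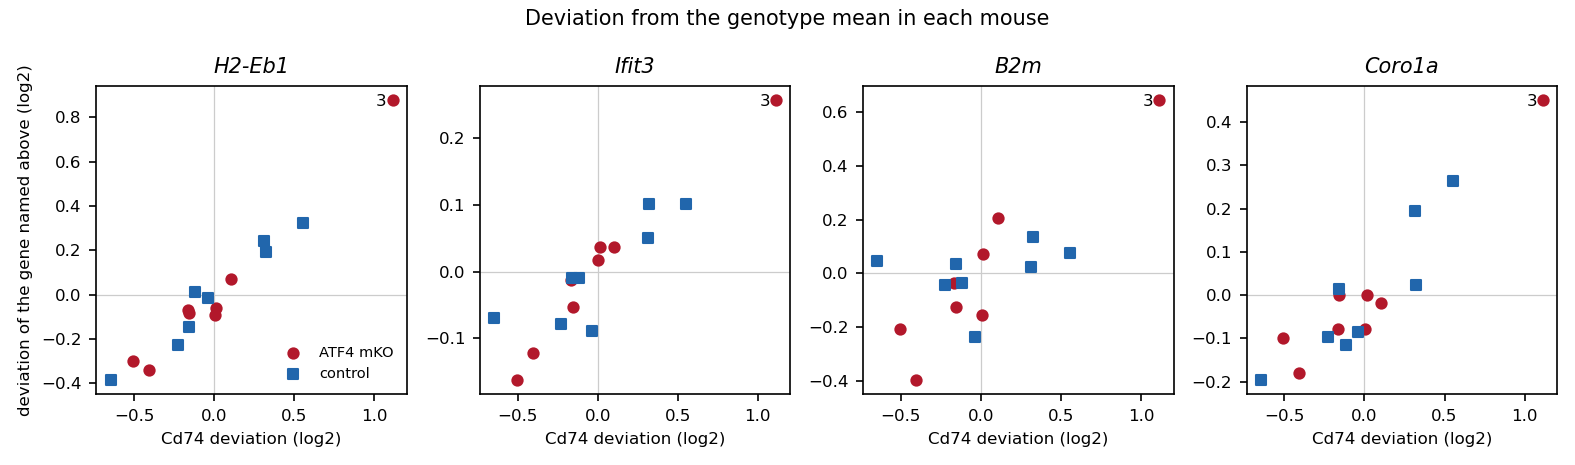
Deviation from the genotype mean of H2-Eb1, Ifit3, B2m and the leukocyte marker Coro1a (vertical axes, log2, scaled separately) against that of Cd74 (horizontal axis, log2), 1 point per mouse, ATF4 mKO as circles and control as squares, with ATF4 mKO mouse 3 numbered. H2-Eb1 (r = 0.98), Ifit3 (r = 0.93) and Coro1a (r = 0.93) follow Cd74 in both genotypes, and for B2m (r = 0.76) the relation in control mice is weak (r = 0.28).

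The 2 marker pairs of Cd74 that were tested did not pass, and both markers were at the floor. Ptprc, the common leukocyte antigen, gave r = -0.10 and rho = -0.19 (permutation p adjusted 0.887 and 0.796), and the complement gene C1qa gave r = 0.67 and rho = 0.41 (permutation p adjusted 0.0845 and 0.406), and 0.24 without the 2 farthest mice. The markers above the floor were added after the data were seen and are given with no test. Of the general leukocyte markers, Coro1a, an actin regulator, gave r = 0.93 and rho = 0.83, Laptm5, a lysosomal protein of blood cells, 0.89 and 0.76, and Fcer1g 0.81 and 0.61. Of the macrophage markers above the floor, Lyz2 (lysozyme) gave r = 0.87 and rho = 0.85, Mrc1 (mannose receptor) 0.87 and 0.82, C1qc 0.87 and 0.73, C1qb 0.82 and 0.51, and Cd163 0.50 and 0.62. Without ATF4 mKO mouse 3, r lay at 0.85 for Coro1a, 0.79 for Laptm5 and 0.60 for Fcer1g. For the macrophage markers it was then 0.73 (Lyz2 and Mrc1), 0.70 (C1qc), 0.62 (C1qb) and 0.43 (Cd163). The adipocyte hormone gene Adipoq gave r = 0.66 and rho = 0.71, and r = 0.60 without mouse 3. Without the 2 farthest mice, r was 0.77 for Adipoq, 0.78 for Coro1a and 0.77 for Laptm5 and Lyz2. For the endothelial markers r was 0.05 (Pecam1), 0.04 (Tie1), -0.04 (Emcn) and -0.41 (Cdh5, with -0.28 in ATF4 mKO mice and -0.69 in control mice). The Cdh5 value was -0.11 without mouse 3 and 0.06 without the 2 farthest mice. For the fibroblast genes r with all mice was 0.35 (Col1a1), 0.14 (Pdgfra) and 0.14 (Dcn), and for the neutrophil gene S100a8 0.15. With Ifi27l2a, r was 0.77 for Adipoq, and 0.51 (Cd163) to 0.68 (Lyz2) for these macrophage markers. It was 0.57 for Laptm5, 0.42 for Fcer1g and 0.40 for Coro1a. With B2m, r was 0.80 for Lyz2, 0.77 for Mrc1, 0.76 for Coro1a, 0.66 for C1qc and Fcer1g, 0.58 for Laptm5, 0.57 for C1qb and 0.17 for Cd163. Without mouse 3 these B2m values were 0.54, 0.48, 0.45, 0.12, 0.17, 0.09, 0.03 and -0.09. With that mouse left out, B2m also had r = 0.48 with Col1a1, 0.43 with Dcn, 0.43 with Cdh5 and 0.24 with Adipoq. The remaining endothelial and fibroblast genes then lay between -0.03 (Emcn) and 0.20 (Pecam1), and S100a8 at -0.32. In control mice r was 0.47 (Pdgfra) to 0.55 (Col1a1) for fibroblast genes and -0.11 (Cd163) to 0.43 (Mrc1) for the macrophage and leukocyte markers.

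Over whole marker lists, ATF4 mKO mouse 3 was high for macrophages and leukocytes. Averaged over 9 measured macrophage markers, ATF4 mKO mouse 3 was at 8.93, with 8.61 to 8.70 in the other ATF4 mKO mice and 8.63 to 8.86 in control mice, and mouse 3 was highest for 6 of the 9. Over the 5 general leukocyte markers, mouse 3 was at 9.22, the other ATF4 mKO mice at 8.81 to 8.90 and control mice at 8.77 to 9.04, with 4 of 5 highest in mouse 3. T and NK cell markers (8.44 in mouse 3, up to 8.37 in the other ATF4 mKO mice and 8.38 in control mice) and B cell markers (8.48 in mouse 3, up to 8.40 and 8.46) had means near the floor. Mouse 3 was nevertheless highest for 4 of 6 T and NK cell and 2 of 3 B cell markers. It was highest for 2 of 5 dendritic cell markers, also at the floor (8.37 in mouse 3, up to 8.36 and 8.37). For 5 endothelial markers (8.83 in mouse 3) and 8 fibre markers (14.63 in mouse 3), mouse 3 was highest for none. The same held for 3 adipocyte, 4 fibroblast and 2 neutrophil markers. The adipocyte mean of mouse 3 (9.15) was nevertheless close to the top of the other ATF4 mKO mice (9.17) and control mice (9.16), with Adipoq at 10.72. Its neutrophil mean (8.56) was just above the other ATF4 mKO mice (up to 8.55) and below the highest control mouse (8.86). By genotype, limma called 0 of the 50 measured markers, and Ptprc alone passed an unadjusted p of 0.025 (difference -0.02 at the floor, limma adjusted p = 0.834). The part of these cells in the variation of the module was not tested.

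The genes most like Cd74 over the 16 mice, among 8809 probes above the floor and by Pearson r after subtracting genotype means, were H2-Eb1 (0.98), a second H2-Ab1 probe (0.98), H2-Aa (0.93), Ifit3 (0.93) and Coro1a (0.93), of which 4 are members. Those most like Igtp were Irgm2 (0.95), Gbp2 (0.92), Fcer1g (0.91), H2-T23 (0.90) and Cd274 (0.88). Without mouse 3, Irgm2 kept an r of 0.88 and Cd274 had 0.69. For the floor genes Irf7 and H2-K1 no member was among the nearest 5, which were Kansl3, Gart, Epdr1, Stx8 and Ermard (0.72 to 0.82) and Nthl1, Gpr19, Acsl3, Itsn2 and 1 probe without a symbol (0.76 to 0.82).

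Other genes of the pathway gave no call either. Of 92 further genes in 5 lists, 81 had a probe, 33 of these lay above the floor, 0 were called with limma at an adjusted p of 0.1 (0 also with the methods' t-test), 2 passed an unadjusted p of 0.025 (2.47%, against 2.98% of all probes) and 4 passed 0.05, where 5.62% of all probes did (3 with the methods' t-test). Among 11 interferon ligands and receptors, Ifngr2, a chain of the interferon gamma receptor, had the smallest p. It read 9.41, 9.50 and 9.55 in ATF4 mKO mice, against 9.20, 9.37 and 9.53 in control mice, and the groups overlapped (difference 0.12 ± 0.04, limma adjusted p = 0.687). Among 28 further interferon-induced genes, Ifitm2 read 9.92, 10.07 and 10.47 in ATF4 mKO mice, against 10.16, 10.29 and 10.49 in control mice (difference -0.17 ± 0.06, limma adjusted p = 0.811). The 12 kinases, STATs and restraints differed by -0.05 to 0.10, with Jak1 (-0.04) and Jak2 (0.10) first by p, and the 14 genes of nucleic acid sensing by -0.06 to 0.06, with Ikbke (0.03, at the floor), Samhd1 (0.04) and Tbk1 (0.06) first by p. Among 16 further antigen presentation genes, Rfxap, a subunit of the factor that binds class II promoters, differed by 0.07 ± 0.03 (limma adjusted p = 0.841). Chosen after their values were seen, the class II peptide editor subunit H2-DMa (9.10), the non-classical H2-T23 (9.22), the immunoproteasome genes Psmb9 (8.90) and Psmb10 (10.29) and the GTPase Irgm2 (10.73) were, like the class II members, highest in ATF4 mKO mouse 3. By list, mouse 3 was highest for 10 of the 28 interferon-induced and 4 of the 16 antigen presentation genes. It was highest for 4 of the 12 kinases, STATs and restraints, 1 of the 11 ligands and receptors and 1 of the 14 sensing genes.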

How the data were processed

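Total RNA from quadriceps of 8 ATF4 mKO and 8 control mice (TRIzol, column purification with DNase) was hybridised by the authors to Illumina Mouse Ref-8 v2.0 BeadChips, 1 array per mouse, and read with BeadStudio. The deposited values were log2 signals per probe. For their background correction, normalization and software release, no details were found in the labels or methods. These log2 signals were used as deposited: array medians ran from 8.378 to 8.381, arrays correlated at 0.994 to 0.998, and 0 columns were identical. All 25697 probes were fitted by genotype with limma 3.58.1 (R 4.3.3, lmFit and eBayes) with Benjamini-Hochberg adjustment over all of them, and a call was an adjusted p of 0.1 or less. The unadjusted p of 0.025 is that of the study's two-tailed unpaired test, called the methods' t-test, which was an alternative. The spread between these mice and the number of arrays limit the precision, and no detection p was used. A gene was represented by its brightest probe. Of the probes, 23978 had 1 gene symbol and 1719 had none.

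Members and lists were chosen with earlier results of these data known. Named in full were, per class, the 3 genes of smallest limma p and the 3 brightest, with other probes of a gene where signs or calls differed. From each list of other pathway genes up to 3 were named by smallest p. For Irf7, H2-K1, Igtp and Cd74 the 5 most correlated genes above the floor were named. Correlations used signals minus the genotype mean, with permutation of mice within genotype (100000 resamples, or exact within 1 genotype) in SciPy 1.17.1 and NumPy 2.4.6 (Python 3.11.15), adjusted over the pairs run. The fitting code was tested on simulated data. Promoter windows came from RefSeq (GRCm38.p6), and motifs were searched on both strands, the reverse letters being TTCNNTTTC, TTCNNNGAA, CCAATCAG and TTNCATCA. Alternatives were quantile normalization, median centring, a filter on dim probes, array weights, the mouse number as a block, another variance prior, other thresholds, a gene's probes averaged, and leaving out each mouse, control mice 3 and 7 or the farthest mice.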

Additional observations from a re-analysis of the deposited data

Results flagged for a closer look

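In each genotype the gap between the extreme mouse and its nearest neighbour was divided by the range of the 8 mice, and 12 of 86 such groups lay above Dixon's critical value for 8 samples. Chance gives about 1 in 20. ATF4 mKO mouse 3 was the extreme animal in 5 of the 12: H2-Ab1 (0.682, 10.68 against 9.67 in the next mouse), Cxcl9 (0.678, 9.03 against 8.60), H2-Eb1 (0.663, 10.16 against 9.35), H2-Aa (0.661, 9.36 against 8.92) and Cd74 (0.625, 11.54 against 10.53). These 5 genes vary together, so they are not separate events, and the same mouse was highest for 6 of 9 macrophage and 4 of 5 general leukocyte markers. It was also highest for 4 of 6 T and NK cell and 2 of 3 B cell markers, which had means near the floor. The part of those cells was not tested.

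Control mouse 4 stood apart for Ifi27l2a (0.614, 11.30 against 10.35). The remaining 6 were genes at the floor: Cxcl10 in control mouse 2 (0.689, 8.57 against 8.42), Mx1 in ATF4 mKO mouse 1 (0.641, 8.44 against 8.36), H2-D1 in control mouse 3, the lowest (0.597, 8.37 against 8.40), Oas1a in ATF4 mKO mouse 6 (0.540, 8.36 against 8.33), H2-K1 in ATF4 mKO mouse 4 (0.533, 8.54 against 8.45) and Isg15 in control mouse 6, the lowest (0.530, 8.42 against 8.47).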

How the results depend on the processing

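The count of member probes called stayed at 0 under all 26 alternatives, as did that of other pathway genes under 24. Over all probes, 35 were called, 55 at an adjusted p of 0.25, and 28 to 37 with 1 mouse left out. The mouse numbers gave no pairing: same-numbered mice correlated at -0.23 to 0.25, with 2 of 8 over 0.1 and 1 of 8 closest to its own number, and the replicate block gave 16 called probes. Member probes at an unadjusted p of 0.025 numbered 1, and 0 with dim probes left out, with the replicate block or with the trended robust prior, and 0 to 2 with 1 mouse left out (2 without control mouse 3).

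Class medians with 1 mouse left out ran from 0.006 to 0.019 for signalling, -0.001 to 0.006 for antiviral effectors, -0.021 to 0.059 for GTPases and chemokines, -4.1e-04 to 0.023 for class I and -0.038 to 0.133 for class II, each lowest without ATF4 mKO mouse 3. Of 592 values of the 25 named genes, 566 kept their sign, 26 turned and 0 were called (smallest adjusted p 0.79, limma or the methods' t-test). Without control mice 3 and 7 the differences were -0.013 for Ifit3, -0.020 for Ifi27l2a, -0.001 for Igtp, -0.021 for B2m and -0.047 for Cd74, and array weights gave -0.002 for B2m. With 1 mouse left out, signs turned within -0.019 to 0.077 for Irf1, -0.013 to 0.024 for Usp18, -0.024 to 0.037 for Ifit3, -0.068 to 0.205 for Ifi27l2a, -0.034 to 0.087 for Gbp2, -0.042 to 0.076 for Igtp, -0.081 to 0.068 for B2m, -4.1e-04 to 0.023 for Nlrc5, -0.011 to 0.036 for Tap2, -0.038 to 0.173 for H2-Ab1, -0.039 to 0.136 for H2-Eb1 and -0.094 to 0.146 for Cd74. Pairs passing the permutation test numbered 7, and 3 without the 2 farthest mice, and 5 (without ATF4 mKO mouse 3) to 8 with 1 mouse left out. The cause was not tested.

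Signal over background is the main limit: 38 of the 68 member probes were at the floor, where a difference in mRNA is compressed. Slide positions were not used here, so a slide block was not run, and a pseudocount does not apply to log2 values. Pairs with Cd68 were not run for want of a probe.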
